A study of Mus musculus with 6 samples.

Results

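Parp1, Parp2, Parp3, Parp8, Parp9, Parp10, Parp11, Parp12 and Parp14 encode members of the PARP family, and Dtx3l encodes the ubiquitin ligase that binds Parp9. These 10 genes were taken by symbol from a table of 29322 genes, in which each symbol had 1 row, and all 10 had an adjusted p-value, as did 20212 genes in all. The table compares RNA of lung mesenchymal cells from adult Yeti+/- mice with that of wild-type adult mice, 3 libraries each. Yeti is a gain-of-function Ifng allele, and Ifng encodes interferon-gamma (IFN-γ). The sort kept DAPI-negative (living) cells without CD45, a leukocyte protein, CD31, an endothelial one, or Epcam, an epithelial one. All 6 libraries are labelled as from tamoxifen-injected mice, with no allele named for it to act on. The extraction protocol calls the cells cultured, which the sort description does not. Nothing in the labels ties a library to its own animal, so p-values measure the spread between these libraries. The deposited table gives each gene a mean over all libraries, a fold change with its standard error (SE) and a p-value, and no value per library.

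PARP enzymes split NAD+ and attach its ADP-ribose part to proteins or nucleic acids. Parp1, Parp2 and the tankyrases build chains of it, most other members attach single units, and hydrolases remove both. Parp1, Parp2 and Parp3 act at broken DNA. Parp9, Parp10, Parp12 and Parp14 are known in several cell types as interferon-stimulated genes, and Parp9 works as a pair with Dtx3l. In human cells the PARP9 and DTX3L genes are known to share a promoter that answers to IFN-γ.

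The start region of the Dtx3l and Parp9 pair is shown here because both genes begin in it, on opposite strands, and both rose. The promoter window of Dtx3l (RefSeq, build GRCm38.p6, minus strand, chr16:35938978-35939277) runs from 250 bases before to 50 bases after the first base of the gene. Capitals mark that first base of Dtx3l and the first bases of the 4 of 7 annotated Parp9 transcripts (GENCODE M21) that begin in the window on the other strand. The Parp9 starts lie between 16 bases to one side and 34 bases to the other side of the Dtx3l start, and GENCODE begins both Dtx3l transcripts 124 bases further upstream.
Dtx3l: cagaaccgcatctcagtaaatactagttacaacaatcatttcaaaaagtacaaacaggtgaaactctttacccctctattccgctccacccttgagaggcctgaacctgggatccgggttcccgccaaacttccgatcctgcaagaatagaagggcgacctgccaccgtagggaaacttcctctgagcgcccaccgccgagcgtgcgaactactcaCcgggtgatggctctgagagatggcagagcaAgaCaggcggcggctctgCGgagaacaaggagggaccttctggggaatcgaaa

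RefSeq windows of 300 bases were found for 7 of the 10 genes (Parp1, Parp2, Parp3, Parp8, Parp11, Parp12 and Dtx3l), 8 windows in all since Parp11 has a pair. They were searched on both strands for TTCNNNGAA, the form of the gamma-activated site, and GAAANNGAA, a part of the interferon-stimulated response element. Each motif was found in 1 gene, Parp11, while 8.30% and 8.56% of all 32851 windows held the first and the second. The Parp11 window (plus strand, chr6:127446590-127446889), where 1 of the 10 annotated Parp11 transcripts begins, is shown because of these matches. Its capitals mark TTCGATTTC, GAAANNGAA read on the minus strand and beginning 43 bases before the start of the gene, and TTCTTGGAA, which begins 37 bases before it and shares 3 letters with the other.
Parp11: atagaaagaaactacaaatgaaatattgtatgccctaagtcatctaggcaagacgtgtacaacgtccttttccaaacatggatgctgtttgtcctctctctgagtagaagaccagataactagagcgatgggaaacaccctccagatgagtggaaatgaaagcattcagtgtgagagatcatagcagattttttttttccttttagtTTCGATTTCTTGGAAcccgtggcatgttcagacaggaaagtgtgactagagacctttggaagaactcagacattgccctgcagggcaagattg
The second Parp11 window, at chr6:127453377-127453676, where 4 of the 10 annotated Parp11 transcripts begin, held neither motif. The other 6 genes with a window held neither as well, both those that rose and those that did not. These letters are descriptions of the windows and not mapped binding sites.

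The sorted cells held mesenchymal RNA and RNA of other cell types. The mesenchymal genes Pdgfra, Pdgfrb, Col1a1, Col1a2, Col3a1 and Dcn were abundant, with means of 8091 to 151407 normalized counts, and 0 of 6 passed the test in the authors' deposited table (0 at an unadjusted p under 0.05). RNA of the excluded cell types was still present, with means of 4871 for Ptprc (CD45), 1279 for Pecam1 (CD31) and 97.6 for Epcam in the authors' deposited table. Their log2 changes were 0.16 ± 0.50 (SE), 0.25 ± 0.46 (SE) and -0.97 ± 0.37 (SE). Of these 3 genes 0 passed (DESeq2 Wald test; 1 lower, Epcam, at an unadjusted p under 0.05). Of 11 macrophage genes tested, 10 were above 0 and 0 passed (DESeq2 Wald test; 5 higher at an unadjusted p under 0.05) in the authors' deposited table, and their summed fitted level was 10525 (wild-type) and 18606 (Yeti) normalized counts. Csf1r, the receptor of the macrophage growth factor, had the largest log2 change of the list, 1.77 ± 0.60 (SE), with an adjusted p of 0.0980, by the authors' deposited table. Lyz2, the most abundant of the list, stood at 0.63 ± 0.38 (SE) and held 6279 (wild-type) and 9736 (Yeti) of the summed counts. Mrc1, the 1 gene below 0, stood at -0.50 ± 0.26 (SE) in the authors' deposited table. Of 8 endothelial genes 5 fell (Tek, Emcn, Cldn5, Prox1 and Lyve1) in the authors' deposited table, and all 8 were below 0. Of 7 B and plasma cell genes 3 fell (Jchain, Mzb1 and Igkc) in the authors' deposited table, and all 7 were below 0. Summed fitted levels were 5450 (wild-type) and 2961 (Yeti) normalized counts for the endothelial list. The B and plasma cell list had 119234 (wild-type) and 35320 (Yeti), of which Igkc held 76522 and 21683. Of 6 epithelial genes 0 passed (1 lower at an unadjusted p under 0.05). Of 7 T and NK cell genes tested 0 passed (3 lower and 1 higher at that unadjusted p). No marker of these lists with a row was at 0. The part of these other cells in the PARP values was not tested, and in bulk RNA fewer cells of a type and less RNA per cell cannot be told apart.

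Most of the 10 genes rose in Yeti. Parp3, Parp9, Parp10, Parp11, Parp12, Parp14 and Dtx3l, 7 genes, had an adjusted p under 0.05 (DESeq2 Wald test, Benjamini-Hochberg over all genes) in the authors' deposited table, and 0 fell. Over all genes with an adjusted p, 2.84% passed, 1.85% as higher and 0.994% as lower in Yeti. The 7 rises ran from 1.43-fold for Parp3 to 1.89-fold for Parp9. None of the 10 passed, and 0 of all genes, when the Wald statistic was read against a t distribution with 4 degrees of freedom (7 of the 10 at an unadjusted p under 0.05). Against a log2 change of 0.5 in place of 0, 0 of the 10 passed (3 at an unadjusted p under 0.05). The median log2 fold change of the 10 genes was 0.70, beside -0.000917 over all genes tested. The summed fitted level of the 10 genes was 12487 (wild-type) and 18260 (Yeti) normalized counts, a ratio of 1.46. That ratio was 1.77 for the macrophage genes above, 0.54 for the endothelial genes and 0.30 for the B and plasma cell genes. A fitted level is the group level that follows from a gene's mean count and its fold change with groups of equal size.

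**Figure D1:**
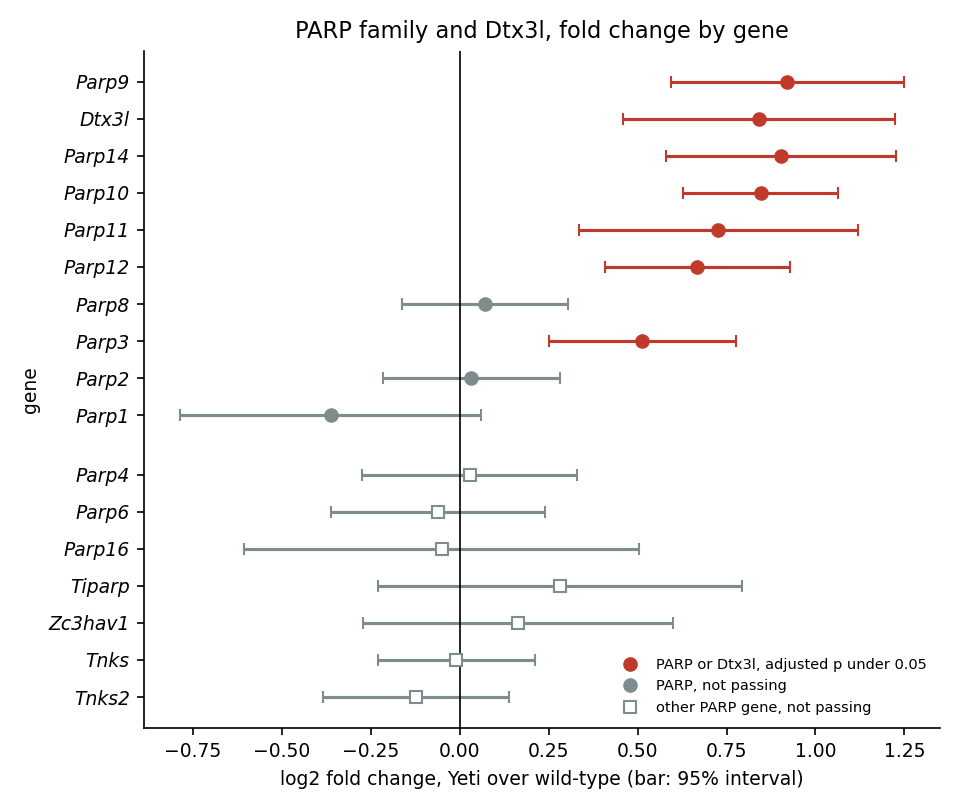
Log2 fold change of Yeti over wild-type (x axis) for the 10 genes and for 7 other PARP genes (y axis, open squares), from the authors' deposited table. Bars are 95% intervals and red marks an adjusted p under 0.05. The 7 red points sit between 0.51 and 0.92, and the interval of each of the other 10 genes spans 0.

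Parp9 and its partner Dtx3l rose to a like extent. Parp9, a macrodomain protein with little or no transferase activity of its own (ENSMUSG00000022906, GRCm38 chromosome 16, 35938470 to 35972605), had fitted levels, in normalized counts, of 798 (wild-type) and 1512 (Yeti). Its log2 change by the authors' deposited table was 0.92 ± 0.17 (SE), adjusted p = 4.71e-06, the highest fold change of the 10. Dtx3l, a ligase of the Deltex family that attaches ubiquitin to histones and other proteins (ENSMUSG00000049502, chromosome 16, 35926511 to 35939151), had fitted levels of 773 and 1386. Its log2 change by the authors' deposited table was 0.84 ± 0.20 (SE), adjusted p = 0.00132. Both genes thus stood near the same level and moved by near the same factor, 1.89-fold and 1.79-fold. Their annotated bodies overlap head to head by 682 bases on opposite strands, so without a stated strand setting reads from that stretch cannot be told apart. An antisense gene, Gm15564, also overlaps Parp9 by 5854 bases, with a mean count of 162 by the authors' deposited table.

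Parp14, the macrodomain enzyme known in mouse B cells as a partner of Stat6 in the interleukin-4 response, lies on the same chromosome (ENSMUSG00000034422, 35832874 to 35871544), 54.966 kb from Dtx3l. Its fitted levels were 1697 (wild-type) and 3173 (Yeti) normalized counts. The log2 change by the authors' deposited table was 0.90 ± 0.16 (SE), adjusted p = 6.24e-06, or 1.87-fold. The 3 genes of this locus held places 1, 2 and 4 of the 10 by fold change. Parp14 was the most abundant of the 3 by count, yet per kilobase of exon its mean of 262 was close to the 237 of Parp9.

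No other gene around this locus passed the test. Of 8 other protein-coding genes within 200 kb of Parp14, Dtx3l or Parp9, 0 passed in the authors' deposited table, with a median log2 fold change of -0.0067 and a range of -0.57 to 0.39. Kpna1, which encodes a nuclear import receptor and begins 6145 bases past the end of Parp9, stood at 0.03 ± 0.21 (SE) in the authors' deposited table. On the other side Hspbap1, 4397 bases from Parp14, stood at -0.05 ± 0.20 (SE) in the authors' deposited table. Stfa2l1 and Sema5b, with mean counts of 14.2 and 27.4 by the authors' deposited table, had 95% intervals wide enough to hold a rise and a fall, respectively, of the size seen for Parp9.

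**Figure D2:**
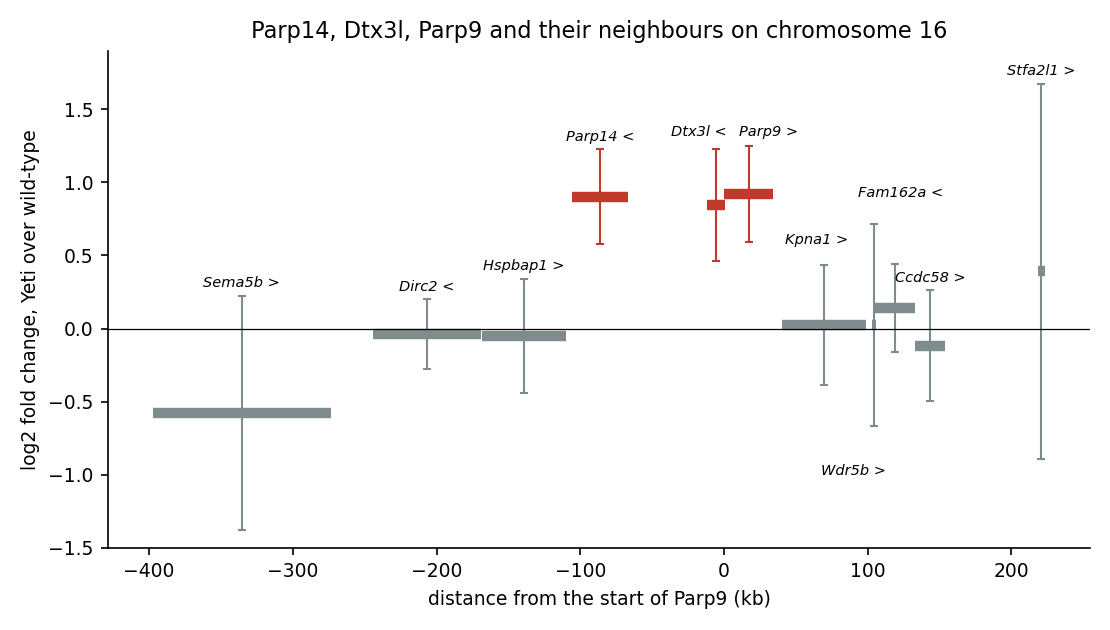
Log2 fold change (y axis) of Parp14, Dtx3l, Parp9 and the 8 protein-coding genes within 200 kb, drawn over each gene's extent as distance from the start of Parp9 in kb (x axis), with 95% intervals and the strand after each name. The 3 red genes, with an adjusted p under 0.05, stand between 0.84 and 0.92, and the grey genes between -0.57 and 0.39.

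No neighbour passed at the other loci either. Over all 10 genes, 53 other protein-coding genes with an adjusted p lay within 200 kb, and 0 of them passed in the authors' deposited table (DESeq2 Wald test; 3 with an unadjusted p under 0.05), and the median log2 change was 0.04. At the background of 2.84%, few calls would fall among 53 genes. The nearest to the threshold, chosen after their values were seen, were Grina, 3323 bases from Parp10 (0.41 ± 0.13 SE, adjusted p = 0.0641), and Tbxas1, 1825 bases from Parp12 (0.82 ± 0.27 SE, adjusted p = 0.0842), in the authors' deposited table. Tbxas1 encodes thromboxane synthase, which macrophages and platelets express.

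Of the 4 other enzymes that attach single ADP-ribose units, Parp10, Parp11 and Parp12 rose and Parp8 did not pass. Parp10, which carries RNA- and ubiquitin-binding motifs (ENSMUSG00000063268, chromosome 15, 76231174 to 76243441), had fitted levels, in normalized counts, of 1263 (wild-type) and 2270 (Yeti). Its log2 change, by the authors' deposited table, of 0.85 ± 0.11 (SE) had the smallest adjusted p of the 10, 7.98e-12. Of 1554 genes of similar mean, 16.3% had a smaller SE, and the fold change was 1.80. Parp10 overlaps Plec by 1401 bases on the same strand, and Plec, which encodes the cytoskeletal linker plectin, had a mean of 12657 and a log2 fold change of 0.04 in the authors' deposited table.

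Parp12, a zinc-finger enzyme with antiviral activity when overexpressed (ENSMUSG00000038507, chromosome 6, 39086410 to 39118349), had fitted levels, in normalized counts, of 1280 (wild-type) and 2034 (Yeti). That was a log2 change, by the authors' deposited table, of 0.67 ± 0.13 (SE), adjusted p = 5.07e-05, or 1.59-fold. Parp11, known in mice for its role in shaping the sperm head (ENSMUSG00000037997, chromosome 6, 127446840 to 127494261), was the lowest of the 10, with fitted levels of 368 and 609. It rose, by the authors' deposited table, by a log2 step of 0.73 ± 0.20 (SE), adjusted p = 0.0141, the largest adjusted p of the genes that passed. Parp8, an enzyme with few known targets (ENSMUSG00000021725, chromosome 13, 116854820 to 117025537), had fitted levels of 766 in wild-type and 805 in Yeti. At 0.07 ± 0.12 (SE), adjusted p = 0.999 in the authors' deposited table, its 95% interval of -0.16 to 0.30 lay below the point estimates of all 7 genes that rose. That interval overlapped the interval of Parp3, 0.25 to 0.78, and no difference between genes was tested.

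Of the DNA-break enzymes, Parp3 passed and Parp1 and Parp2 did not. Parp3, which acts in double-strand break repair (ENSMUSG00000023249, chromosome 9, 106470322 to 106476949), was the most abundant of the 10, with fitted levels, in normalized counts, of 3055 (wild-type) and 4359 (Yeti). It rose, by the authors' deposited table, by a log2 step of 0.51 ± 0.13 (SE), adjusted p = 0.00753, the smallest change that passed. Parp3 overlaps Rrp9 by 987 bases on the opposite strand, and Rrp9, a gene of ribosomal RNA processing, stood at a mean of 556 and a log2 fold change of 0.16 in the authors' deposited table.

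Parp1, the main chain-building enzyme at DNA breaks (ENSMUSG00000026496, chromosome 1, 180568924 to 180601254), had fitted levels, in normalized counts, of 1762 (wild-type) and 1370 (Yeti). It was the only 1 of the 10 genes below 0, at -0.36 ± 0.22 (SE), adjusted p = 0.715 in the authors' deposited table, with an interval of -0.79 to 0.06. Its SE exceeded that of 81.5% of 1644 genes of similar mean, and a change of at least 1.61-fold would have been needed to pass. Parp2, the close relative of Parp1 (ENSMUSG00000036023, chromosome 14, 50807841 to 50821301), had fitted levels of 724 and 741. At 0.03 ± 0.13 (SE), adjusted p = 0.999 in the authors' deposited table, its interval of -0.22 to 0.28 lay below the point estimate of Parp3. That interval overlapped the interval of Parp3, 0.25 to 0.78, and the difference between the genes was not tested.

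The sizes of the 7 rises lay close together. All 21 pairs of the 7 genes had overlapping 95% intervals, and the difference within a pair could not be tested, since it needs values per library. A between-library coefficient of variation derived from each SE lay between 0.0910 for Parp10 and 0.181 for Parp1. Its median was 0.125 over the 10 genes, beside 0.207 over all genes tested and 0.406 for the macrophage genes. The genes tested reach down to a mean of 4.57 normalized counts, so these medians are not matched for abundance. Among genes of similar mean, 5 of the 10 genes had an SE below the median. The derivation takes the dispersion that DESeq2 fitted, which is drawn toward that of genes of like abundance.

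Set among the genes that passed as higher, the PARP changes were small in size. A gene with a larger SE passes only with a larger change, and those genes were not matched for abundance. The SE of 3 of the 7 genes was below the median SE of genes of similar mean. Of the 373 genes higher in Yeti in the authors' deposited table, 240 rose by at least 2-fold, with a median of 2.60-fold for the 373. Of the 7 PARP and Dtx3l genes 0 reached 2-fold, and they held places 251 to 350 of the 373 by fold change. By p-value they held places 67 to 416 of the 20212 genes tested. Parp10 was at 67, Parp9 at 138, Parp14 at 140 and Parp12 at 168. Over all genes tested, 3.73% had a larger log2 change than Parp9 and 8.92% a larger one than Parp3.

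**Figure D3:**
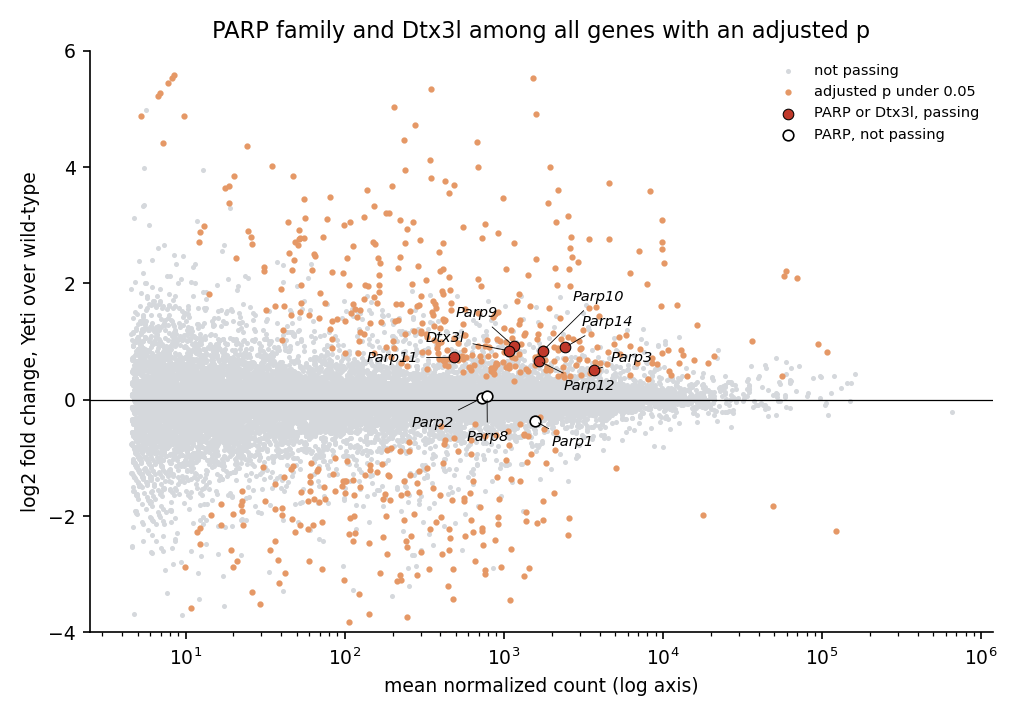
Log2 fold change (y axis) against mean normalized count (x axis, log scale) for genes with an adjusted p in the authors' deposited table, with 19 genes beyond the y axis not drawn. Orange marks an adjusted p under 0.05. The 7 PARP and Dtx3l genes that passed (red) lie between 0.51 and 0.92 at means of 488 to 3707, and the 3 that did not (open) between -0.36 and 0.07.

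Levels of different genes were compared per kilobase of annotated exon. Parp3 was the highest by this scale, with 826 normalized counts per kilobase in wild-type and 1179 in Yeti, and Parp11 the lowest, with 52.3 and 86.7. In wild-type, Parp1 (333 per kilobase), Parp12 (320) and Parp10 (295) followed Parp3, and these 3 differed by less than the between-library coefficient of variation of Parp1. In Yeti, Parp10 (531) and Parp12 (509) came next after Parp3, ahead of Parp14 (341), Parp9 (310) and Parp1 (259). Parp1 thus stood at place 2 in wild-type and place 6 in Yeti, although its own change did not pass the test. Parp2 (200 in wild-type), Parp14 (182) and Parp9 (164) also lay close together there, with Dtx3l at 135 and Parp8 at 86.2. With the length of the longest transcript in place of all exons, 7 of the 10 genes changed place by mean level, and Parp3, Parp1 and Parp11 kept places 1, 4 and 10. Parp10 and Parp12 traded places 2 and 3. Parp2 moved from place 7 to place 5, ahead of Parp14 and Parp9. Parp8, at a mean of 229 per kilobase of longest transcript, passed Dtx3l at 203, so the order of these genes depends on the length used.

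**Figure D4:**
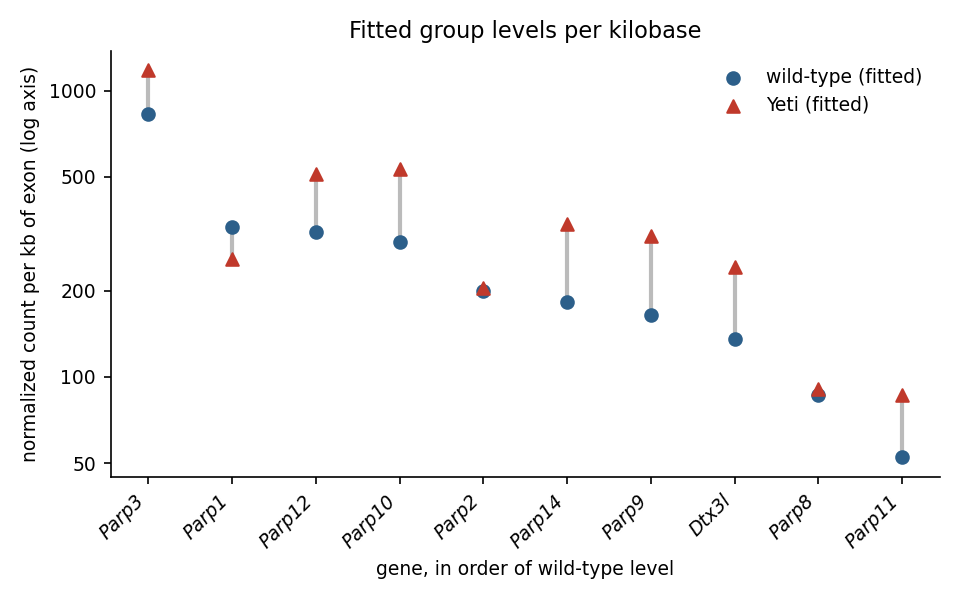
Fitted levels in normalized counts per kilobase of exon (y axis, log scale) for the 10 genes (x axis, ordered by wild-type level), with circles for wild-type and triangles for Yeti. Levels are derived from the mean and fold change of 3 libraries a group, so no spread is drawn. The triangle is above the circle for 9 genes and below it for Parp1.

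The other PARP genes examined did not pass. Of 7 other PARP genes, 0 passed in the authors' deposited table (DESeq2 Wald test; 0 with an unadjusted p under 0.05), and the median log2 change was -0.0097. Their summed fitted level was 12507 (wild-type) and 12906 (Yeti) normalized counts. Tnks2, a tankyrase and the most abundant of them, stood at -0.12 ± 0.13 (SE), and its relative Tnks at -0.01 ± 0.11 (SE), in the authors' deposited table. Zc3hav1, the antiviral RNA-binding protein also called PARP13 and induced by interferon in other cells, stood at 0.16 ± 0.22 (SE) in the authors' deposited table, with an interval of -0.27 to 0.60. Tiparp, a target of the aryl hydrocarbon receptor, stood at 0.28 ± 0.26 (SE) in the authors' deposited table, with an interval of -0.23 to 0.79. The intervals of Zc3hav1 and Tiparp hold changes of the size seen for Parp3, so these data do not separate them from a rise of that size.

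The listed genes that serve or reverse ADP-ribosylation did not pass either. Of 7 partners and erasers, 0 passed in the authors' deposited table (1 higher with an unadjusted p under 0.05), and the median log2 change was 0.02. Adprh, the hydrolase that removes ADP-ribose from arginine and the most abundant of them, was at 0.23 ± 0.11 (SE) with an adjusted p of 0.515, by the authors' deposited table. Parg, which takes ADP-ribose chains apart, was at -0.10 ± 0.17 (SE), and Hpf1, the cofactor that directs Parp1 and Parp2 to serine, at -0.03 ± 0.14 (SE), in the authors' deposited table. Of 12 genes of NAD synthesis and use, 0 passed in the authors' deposited table (1 lower with an unadjusted p under 0.05), and the median log2 change was -0.10. Nampt, the rate-limiting enzyme of NAD salvage and the most abundant of the list, was at 0.36 ± 0.25 (SE), and the NAD-splitting surface enzyme Cd38 at -0.66 ± 0.63 (SE), in the authors' deposited table.

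The partners of Parp1, Parp2 and Parp3 in DNA repair stayed under the threshold too. Of 10 strand-break repair genes, 0 passed in the authors' deposited table (0 with an unadjusted p under 0.05), and the median log2 change was -0.05. The scaffold Xrcc1 was at -0.04 ± 0.12 (SE) in the authors' deposited table. Of the 4 other Deltex ligases, 0 passed in the authors' deposited table (1 lower with an unadjusted p under 0.05), and the median log2 change was 0.04. Dtx3, the most abundant, was at 0.17 ± 0.16 (SE), and Dtx1, a regulator of Notch signalling, at -0.77 ± 0.37 (SE), adjusted p = 0.453, in the authors' deposited table. Dtx3l was thus the 1 Deltex ligase of 5 that passed.

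Interferon factors outside the family gave a scale for these rises. Stat2 rose by a log2 step of 1.13 ± 0.15 (SE), its partner Irf9 by 0.66 ± 0.16 (SE) and Irf1, an interferon-induced transcription factor, by 1.98 ± 0.27 (SE), by the authors' deposited table. The fold changes of the 7 PARP and Dtx3l genes lay below those of Stat2 and Irf1, and on both sides of that of Irf9.

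**Figure D5:**
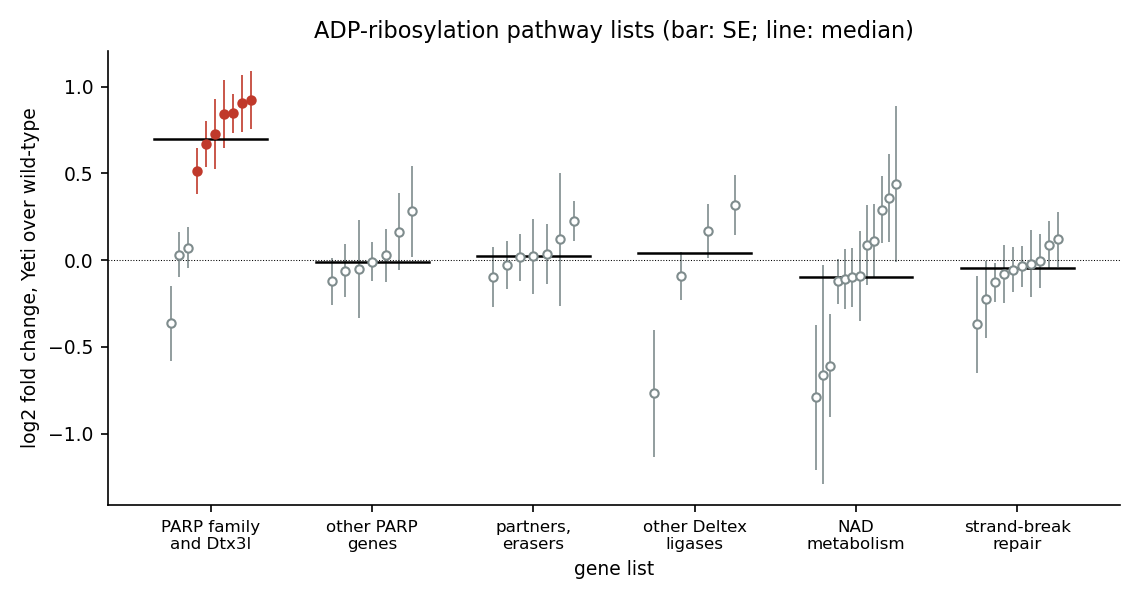
Log2 fold change of Yeti over wild-type (y axis) for each tested gene of 6 lists (x axis), with SE bars, the list's median as a line and red for an adjusted p under 0.05. Red points appear in the first list, 7 of 10, and in none of the other lists drawn. The interferon factors above, which rose, are not drawn. All lists were chosen with earlier results of these data known, so the contrast between them is not a test.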

How the data were processed

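RNA of 6 libraries, 3 per group by their titles, was available as 1 table comparing the groups. Per the submitters' processing notes, FastQC, STAR and DESeq were used, versions not stated, with the builds GRCm38 and mm10. The sources used here do not give the read counter, strand setting or annotation. The mean column is a signal in the authors' deposited table, counts divided by size factors and averaged over libraries. Its sum was 26646632, the average depth per library after scaling. The log2 fold change and its SE are the authors' values per the file headers, as is the Wald score, which matched fold change divided by SE within 4.25e-07. The p-value and adjusted p-value are the authors' deposited values, and Benjamini-Hochberg values computed again from the 20212 p-values differed by at most 3.91e-06.

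Fitted group levels, 95% intervals and coefficients of variation were derived from these columns with Python 3.11.15, pandas 2.3.3 and scipy 1.17.1. Coordinates and exon lengths came from GENCODE M21 (GRCm38) by gene identifier, which matched 29213 of 29322 genes, and promoter windows from RefSeq. Of 104 listed genes, 103 had a row. The adjustment and tests were checked on fold changes simulated with normal errors of each gene's own SE. No counts were simulated, so that check cannot decide between the normal and the t reference. Calls were compared across all genes; alternatives changed the genes adjusted over, the distribution, the size of change tested, the centring and the threshold. Named genes were every one of the 10, in each list the genes that passed and the most abundant, and other list genes chosen after their values were seen. A few results are not reported here. The 10 genes and all lists were chosen with earlier results of these data known. Protein sequences were not analysed here.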

Additional observations from a re-analysis of the deposited data

How the results depend on the processing

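The 7 calls held when p-values were adjusted over every gene with a p-value (7), over genes with a mean count of at least 50 (7) and after centring on the median (7). At an adjusted p under 0.01 there were 6, without Parp11. With a t distribution with 4 degrees of freedom in place of the normal, 0 of the 10 genes passed, and 0 of all 20212 genes, while 7 of the 10 stayed under an unadjusted p of 0.05. The SE was the same in both readings, and only the reference distribution changed. For an absolute log2 fold change above 0.5, 0 of the 10 passed (3 at an unadjusted p under 0.05) and 170 of all genes did. So the rises passed against 0 with the normal reference only, and did not pass against a log2 change of 0.5. Since no gene at all passed with the t distribution, that reading does not set these 7 genes apart from other genes. Within 100 kb, 0 of 30 neighbouring genes passed. With TTCCNGGAA in place of TTCNNNGAA, 0 windows of the 10 genes matched, against 1.15% of all windows. No paired analysis was possible because the file holds 1 fold change per gene and no value per library; for the same reason leaving out each replicate and a test with another count tool were not run, so whether a single library decides a call is not known. Precision limits the weakest gene: Parp1 would have needed a change of 1.61-fold to pass and Parp10 1.28-fold.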

Other observations

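Genes next to the PARP family in function, and Gm15564 by its position, gave no call. They were chosen after the table had been looked through. Of 9 such genes with a row, 0 passed in the authors' deposited table (DESeq2 Wald test; 0 with an unadjusted p under 0.05), and the median log2 change was 0.08. Art4, a member of the surface ADP-ribosyltransferase family and the most abundant of the 9, was fitted at 3307 (wild-type) and 3875 (Yeti) normalized counts and stood at 0.23 ± 0.19 (SE) in the authors' deposited table. Its relative Art3 was at 0.17 ± 0.30 (SE), and Art1, Art2b and Art5 had means under 24 normalized counts in the authors' deposited table. Rnf146, the ubiquitin ligase that recognises ADP-ribose chains made by tankyrases, was at 0.08 ± 0.16 (SE), and Chd1l, a chromatin remodeller that binds such chains, at -0.01 ± 0.14 (SE), in the authors' deposited table. Gm15564, the antisense gene that overlaps the end of Parp9 by 5854 bases and runs on past it, stood at 0.41 ± 0.21 (SE), adjusted p = 0.553 in the authors' deposited table.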
